A study of Mus musculus with 6 samples.

Results

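Transcripts of 10 genes of the canonical Wnt pathway were followed in LβT2 cells, an immortalised mouse gonadotrope line derived from the anterior pituitary. The genes were taken by symbol from the 47069 genes of the deposited count table. They were Ctnnb1, Tcf7, Tcf7l1, Tcf7l2, Lef1, Axin1, Axin2, Apc, Gsk3b and Lrp6. All 10 had an entry in the table, 9 had at least 1 count, and 8 passed the filter on low counts and could be tested.

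The study compared cells lysed fresh with cells kept in RNA-Best, a proprietary reagent meant to hold RNA and whole cells in a stable state. Every culture, fresh or preserved, was at passage 14 and received 2 nM gonadotropin-releasing hormone (GnRH) over 40 min, so no untreated cells entered the comparison and no value here measures a response to GnRH. Storage in RNA-Best was at 4 °C and lasted at least 4 days. Each group held 3 bulk polyA RNA-seq libraries, and since no source states that they came from separate cultures, p-values measure only the spread between these libraries. In bulk RNA, fewer cells with a transcript and less transcript per cell cannot be told apart.

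In canonical Wnt signalling a secreted Wnt ligand binds a Frizzled receptor and the co-receptor Lrp5 or Lrp6. Without the ligand, a destruction complex built on the scaffolds Axin and Apc lets Gsk3 kinases phosphorylate β-catenin, the product of Ctnnb1, which is then degraded. With the ligand, β-catenin accumulates, enters the nucleus and acts with the TCF/LEF factors encoded by Tcf7, Tcf7l1, Tcf7l2 and Lef1. In gonadotropes, β-catenin is also known as a cofactor in the control of gonadotropin genes by GnRH.

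Library depth differed between the groups, with 14477304 to 47438746 counts in fresh and 4909418 to 11999363 in RNA-Best libraries. The gonadotrope markers Cga, Gnrhr, Lhb, Fshb and Nr5a1 summed to between 2379 and 2404 CPM (counts per 1000000 of the library's total) in fresh and between 1972 and 2014 CPM in RNA-Best libraries. Fshb, which encodes the follicle-stimulating hormone subunit, was at 0 in every library. The other pituitary cell types were near absent, as their 6 markers summed to at most 2.28 CPM and Prl and Pou1f1 were at 0, and fibroblast and immune markers summed to at most 0.271 and 4.28 CPM, with Dcn and Ptprc at 0. The 3 endothelial markers summed to 190.9 to 193.2 CPM in fresh and 196.4 to 208.9 CPM in RNA-Best libraries, and the part of these marker levels in the results was not tested.

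Of the 8 tested members, 4 were higher in RNA-Best libraries and 0 were lower at a false discovery rate of 5% in edgeR's quasi-likelihood test. None was lower at an unadjusted p under 0.05 either, nor in DESeq2 (3 higher, 0 lower) or limma-voom (5 higher, 0 lower). Apc, Lrp6, Gsk3b and Axin2 rose, whereas Ctnnb1, Tcf7, Tcf7l2 and Axin1 did not pass. The background was high, since 50.8% of the 14736 genes tested passed, with 26% higher and 24.8% lower in RNA-Best. In 6 members every RNA-Best library lay above every fresh library, and in 0 every one lay below. Over all tested genes the groups did not overlap in 57.5%, with RNA-Best above in 30.4% and below in 27.1%. The median log2 fold change (RNA-Best over fresh) was 0.11 over the 8 members and -0.01 over all tested genes, and the members were longer, with a median exonic length of 7.14 kb against 3.92 kb. No member reached a log2 fold change of 1 in size, at which 1.45% of all genes were called.

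**Figure D1:**
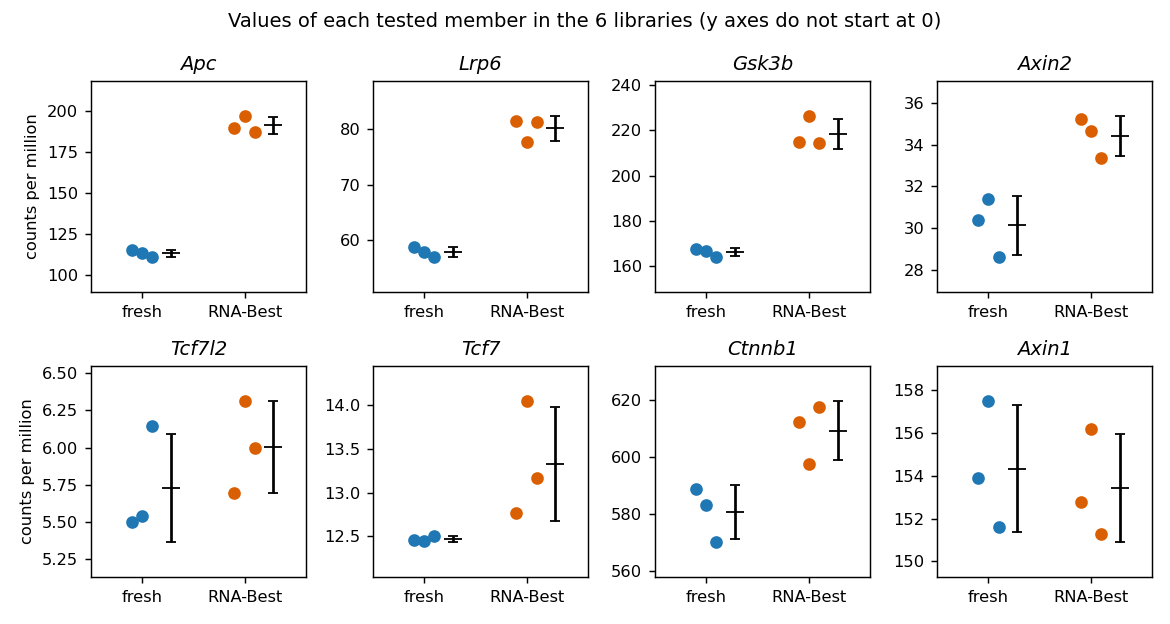
CPM (y axes, which do not start at 0) of each tested member in the 3 fresh and 3 RNA-Best libraries, with points for libraries and bars for the mean ± SD. Apc, Lrp6, Gsk3b and Axin2 show a gap between the groups, as do Ctnnb1 and Tcf7 by a smaller margin, while Tcf7l2 and Axin1 overlap.

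Lrp6, the co-receptor at the cell surface, had 58.7, 57.9 and 56.9 CPM in the fresh libraries and 81.5, 77.6 and 81.3 CPM in the RNA-Best libraries. The lowest RNA-Best library thus lay well above the highest fresh library. The log2 fold change was 0.46 (SE 0.041, 95% confidence interval 0.38 to 0.55, edgeR adjusted p = 1.60e-11), or 1.38-fold, and it was 0.12 with an offset for exonic length in each library (0.0173). The gene lies on the minus strand at chr6:134446476-134566965 (GRCm38) and has 13.7 kb of exonic sequence.

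Apc, the large scaffold of the destruction complex and a tumour suppressor of the intestine, had the largest log2 fold change of the 8 tested members. It stood at 115.2, 113.2 and 110.9 CPM in fresh libraries and at 189.5, 196.8 and 187.2 CPM in RNA-Best libraries. The groups were separated by many times their spread, with means of 113.1 ± 2.16 and 191.1 ± 5.00 CPM (SD, n = 3 libraries each). The log2 fold change was 0.73 (SE 0.033, 95% confidence interval 0.67 to 0.80, edgeR adjusted p = 3.62e-19), or 1.66-fold, and it was 0.35 with the length offset (1.56e-10). Apc is at chr18:34220924-34322552 on the plus strand and, with 16.1 kb of exons, is the longest of the 10 genes.

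Gsk3b, a kinase that marks β-catenin for degradation, was measured at 167.6, 166.7 and 163.9 CPM in fresh cells and at 215.0, 226.3 and 214.5 CPM in RNA-Best. Its groups did not overlap, and it rose 1.30-fold (log2 fold change 0.37, SE 0.031, 95% confidence interval 0.31 to 0.44, edgeR adjusted p = 3.42e-12). With the length offset the log2 fold change was 0.13 (edgeR adjusted p = 0.00104). It has 9.83 kb of exons at chr16:38089001-38246084, on the plus strand. Gsk3a, which encodes the other Gsk3 kinase and was added after its values were seen, has 2.90 kb of exons and fell by 0.13 on the log2 scale (edgeR adjusted p = 0.00376), from 118.2 ± 1.21 to 109.9 ± 2.56 CPM (SD, n = 3). The Gsk3a call was lost with an offset for length (-0.07, edgeR adjusted p = 0.102) or GC content (-0.01, 0.848) and on thinned counts (-0.10, 0.145). Apc2, the paralog of Apc and likewise added after its values were seen, had a log2 fold change of 0.14 (edgeR adjusted p = 0.195) at 12.1 to 14.8 CPM, -0.15 with an offset for length (0.168) and 0.25 with an offset for GC content (0.0157). Without RNA-Best library 3 it was at 0.05 (edgeR adjusted p = 0.775).

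Axin1, the constitutive scaffold, had 153.9, 157.5 and 151.6 CPM in fresh and 152.8, 156.2 and 151.3 CPM in RNA-Best libraries. The ranges overlapped almost wholly. Its log2 fold change of -0.03 had a 95% confidence interval from -0.10 to 0.04 (edgeR adjusted p = 0.473), so a change beyond 0.10 in either direction lies outside that interval. Axin1 has 3.83 kb of exons at chr17:26138688-26195811 on the plus strand.

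Axin2 encodes a second Axin scaffold and is a widely used readout of the pathway, because TCF factors drive its transcription and its product feeds back on β-catenin. It stood at 30.4, 31.4 and 28.6 CPM in fresh libraries and at 35.2, 34.6 and 33.3 CPM in RNA-Best libraries. Every RNA-Best library was above every fresh library, though narrowly, with 33.3 CPM in the lowest RNA-Best and 31.4 CPM in the highest fresh library. The log2 fold change was 0.15 (SE 0.058, 95% confidence interval 0.04 to 0.27, edgeR adjusted p = 0.0258), or 1.11-fold. This call was the least firm of the 4, as it held in 8 of 16 analyses and the adjusted p ranged from 0.00273 to 0.31, the value with the length offset. It was lost without fresh library 3 (log2 fold change 0.134, adjusted p = 0.0525), without RNA-Best library 1 (0.134, 0.121) and without RNA-Best library 2 (0.152, 0.0540), all from edgeR. The gene is at chr11:108920349-108950783 on the plus strand with 5.51 kb of exons, and the antisense gene Gm11670 that shares 209 bases with it had at most 0.0691 CPM.

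Because Axin2 is widely used as a readout of TCF activity and was detected, its start region is shown, from RefSeq (GRCm38.p6) and from GENCODE M21 on the same assembly. The upstream window is chr11:108920099-108920348 on the plus strand, 250 bases that end just before the annotated start. The TCF core letters CTTTG and their extended forms CTTTGAT and CTTTGAA, which contain the core, were searched on both strands. In the RefSeq windows of 250 bases before and 50 after a start, CTTTG was present in 53.9%, CTTTGAT in 3.73% and CTTTGAA in 5.13% of 32851 windows. None of the 3 was in the Axin2 window, whose letters therefore carry no capitals.
Axin2 upstream: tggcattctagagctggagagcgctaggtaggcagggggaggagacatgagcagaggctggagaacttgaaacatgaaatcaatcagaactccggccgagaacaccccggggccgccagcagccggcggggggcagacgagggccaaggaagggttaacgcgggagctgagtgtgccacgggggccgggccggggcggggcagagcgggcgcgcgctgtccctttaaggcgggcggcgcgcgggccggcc
A CTTTGAT lies just past that window, at chr11:108920427-108920433 on the plus strand, in the noncoding first exon of the annotated Axin2 transcript that begins at this start, from its base 79 on. It is given in capitals within 30 bases of that exon.
Axin2 first exon: agccggctgcgCTTTGATaaggtcctggca
Among 131058 GENCODE transcripts of at least 300 bases, 4.54% hold CTTTGAT on either strand within their first 300 bases. Of the 83 such transcripts of the members, 2 did, this Axin2 transcript and a transcript of Ctnnb1. These letters are a description of the sequence and not evidence of factor binding in these cells.

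Since Axin1 is not known as a TCF target, the ratio of Axin2 to Axin1 was computed in each library from CPM per kb of exon. The log2 ratio was -2.87, -2.85 and -2.93 in fresh and -2.64, -2.70 and -2.71 in RNA-Best libraries. All preserved libraries were higher, and Axin2 stood at 0.136 ± 0.00391 of the Axin1 level in fresh and 0.156 ± 0.00380 in RNA-Best (SD, n = 3). The mean log2 ratio differed by 0.20 (two-sided p = 0.1 in an exact permutation test, which is the lowest value possible with 3 libraries a group), so the design could not reach 0.05. Division by exonic length left this difference unchanged, as it was also 0.20 without division. The log2 fold changes were 0.15 for Axin2 and -0.03 for Axin1, and 0.08 and -0.02 with the length offset. The ratio itself was not corrected for the trend of fold changes with length.

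Ctnnb1, which encodes β-catenin itself, was the most abundant member per length of transcript. It had 588.8, 583.3 and 570.4 CPM in fresh and 612.4, 597.6 and 617.7 CPM in RNA-Best libraries. The groups were narrowly apart, with means of 580.9 ± 9.45 and 609.3 ± 10.4 CPM (SD, n = 3). The log2 fold change of 0.06 (SE 0.027, 95% confidence interval 0.0016 to 0.11) missed the threshold after adjustment (edgeR adjusted p = 0.0808), and limma-voom, the test used by the study, gave 0.0455. Ctnnb1 is at chr9:120929216-120960507 on the plus strand with 5.19 kb of exons, of which 759 bases overlap exons of the opposite gene Ulk4, measured at 11.2 to 13.3 CPM.

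Of the nuclear factors, Tcf7 (TCF1) had 12.5, 12.4 and 12.5 CPM in fresh and 12.8, 14.1 and 13.2 CPM in RNA-Best libraries. The preserved libraries lay just above the fresh ones. The log2 fold change of 0.07 had a 95% confidence interval from -0.10 to 0.24 (edgeR adjusted p = 0.528). The gene is at chr11:52252371-52283014 on the minus strand and has 2.62 kb of exons.

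Tcf7l2 (TCF4), the main TCF of intestinal epithelium, was lower, at 5.50, 5.54 and 6.15 CPM in fresh and 5.70, 6.31 and 6.0 CPM in RNA-Best libraries. Those ranges overlapped. Its log2 fold change was 0.07 with a 95% confidence interval from -0.18 to 0.32 (edgeR adjusted p = 0.673). It lies at chr19:55741820-55933654 on the plus strand, with 8.78 kb of exons.

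Tcf7l1 (TCF3), usually a repressor, was barely present, with 5, 10 and 2 counts in fresh and 2, 0 and 1 counts in RNA-Best libraries. Pooled over libraries this was 0.166 CPM (exact Poisson 95% interval 0.0967 to 0.266) in fresh and 0.117 CPM (0.0241 to 0.341) in RNA-Best. The ratio of 0.704 had an interval from 0.132 to 2.43, so no difference was detectable at this depth. These intervals, and the limits for a count of 0, cover counting error only. The gene is at chr6:72626378-72789254 on the minus strand.

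Lef1, an activating partner of β-catenin, had 0 counts in all 6 libraries. A count of 0 allows up to 3 counts, which is 0.0632 CPM in the deepest fresh library and 0.611 CPM in the shallowest RNA-Best library. The gene spans chr3:131110471-131224356 on the plus strand with 8.79 kb of exons. Lef1 and Tcf7 are themselves known as targets of β-catenin and TCF. RefSeq (GRCm38.p6) gives 4 starts and so 4 windows for Lef1, and the most upstream, chr3:131110047-131110296 on the plus strand, which ends before the GENCODE start above, is shown with its CTTTG in capitals as the example of a member that was not detected.
Lef1 upstream: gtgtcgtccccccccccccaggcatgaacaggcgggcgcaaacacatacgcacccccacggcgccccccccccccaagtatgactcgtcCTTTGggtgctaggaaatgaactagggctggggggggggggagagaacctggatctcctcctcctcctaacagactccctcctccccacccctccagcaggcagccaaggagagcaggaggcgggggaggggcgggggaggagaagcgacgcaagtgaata
All 4 Lef1 windows held CTTTG. They held neither CTTTGAT nor CTTTGAA, and neither was found in any of the 13 windows available for 7 of the 10 members.

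The 4 TCF/LEF genes were compared with each other as shares of their summed CPM per kb in each library. Tcf7 held 87.8%, 87.4% and 86.6% in fresh and 87.3%, 88.2% and 87.7% in RNA-Best libraries, so the groups overlapped. Tcf7l2 held 12.0 ± 0.645% in fresh and 11.8 ± 0.149% in RNA-Best (SD, n = 3), and Tcf7l1 0.738 ± 0.221% and 0.471 ± 0.529%. The differences did not pass an exact two-sided permutation test, with p = 0.5 for Tcf7, 1.0 for Tcf7l2 and 0.5 for Tcf7l1, in a design whose smallest p is 0.1. The share depends on the length used, and the mean Tcf7 share was 68.2% with no division by length and 76.3% with the length of the longest transcript.

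Ordered by mean CPM per kb in fresh libraries, the members ran from Ctnnb1 (111.9) through Axin1 (40.3), Gsk3b (16.9), Apc (7.02), Axin2 (5.47), Tcf7 (4.75), Lrp6 (4.23), Tcf7l2 (0.653) and Tcf7l1 (0.0401) to Lef1 (0). In RNA-Best libraries the values were 117.3 for Ctnnb1, 40.1 for Axin1, 22.2 for Gsk3b, 11.9 for Apc, 6.25 for Axin2, 5.86 for Lrp6, 5.08 for Tcf7, 0.684 for Tcf7l2 and 0.0264 for Tcf7l1. Lrp6 and Tcf7 thus changed places between the groups. Neighbours in the order had ranges that did not overlap, with the exception of Tcf7l1 and Lef1 in RNA-Best, where a library of each was at 0.

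**Figure D2:**
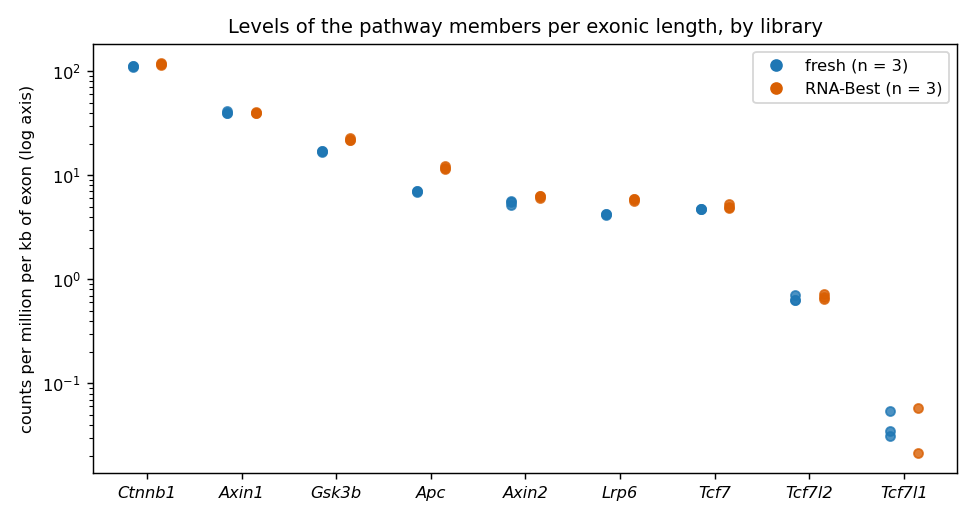
Level of each member in CPM per kb of exon (log axis) in the 3 fresh and 3 RNA-Best libraries, 1 point per library. Ctnnb1 is highest at 111.9 in fresh libraries and Tcf7l1 lowest, and values of 0 (Lef1 in all libraries and Tcf7l1 in RNA-Best library 2) cannot be drawn on a log axis.

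The fold changes of the whole table rose with exonic length, and the longest members, Apc, Lrp6 and Gsk3b, had the largest fold changes of the members. The other members did not follow length, as Tcf7l2 (8.78 kb) and Tcf7 (2.62 kb) were both at 0.07. The median log2 fold change was -0.22 for the 1571 tested genes of up to 1 kb, 0.03 for the 3149 of 4 to 6 kb and 0.32 for the 1244 above 10 kb, of which 76.8% were called higher. Lrp6 and Apc belong to the bin above 10 kb, Gsk3b and Tcf7l2 to that of 8 to 10 kb (median 0.20, 60.8% called higher) and Axin2 and Ctnnb1 to that of 4 to 6 kb (26.4% called higher). With the offset for length, Apc, Gsk3b and Lrp6 were still called, at the smaller values given above. Axin2 was at 0.08 under that offset (edgeR adjusted p = 0.310), Tcf7 at 0.13 (0.234), Ctnnb1 at -0.01 (0.823), Axin1 at -0.02 (0.585) and Tcf7l2 at -0.14 (0.431). Apc stood at the 93.8th percentile of fold changes in its length bin, Gsk3b and the uncalled Tcf7 at the 79.9th, Axin2 at the 72.5th and Lrp6 at the 72.4th, whereas Axin1 (57.7th), Ctnnb1 (54.9th) and Tcf7l2 (27.2nd) were lower. The part of length in each member's difference was not tested beyond this offset.

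**Figure D3:**
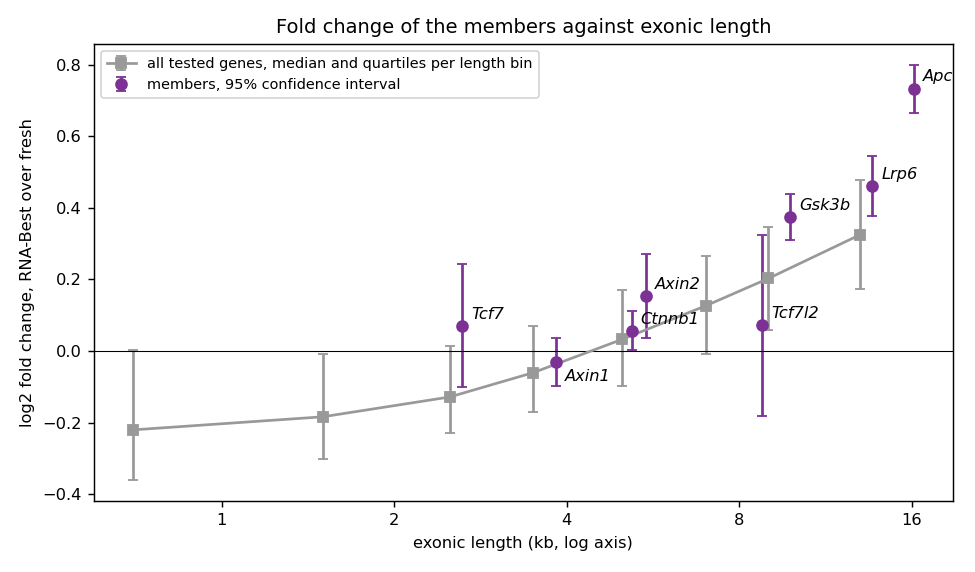
Log2 fold change of RNA-Best over fresh against exonic length in kb (log axis), with members as points with 95% confidence intervals and all tested genes as the median and quartiles per length bin. The medians climb from -0.22 to 0.32, and the tested members other than Tcf7l2 lie above the median of their bins.

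**Figure D4:**
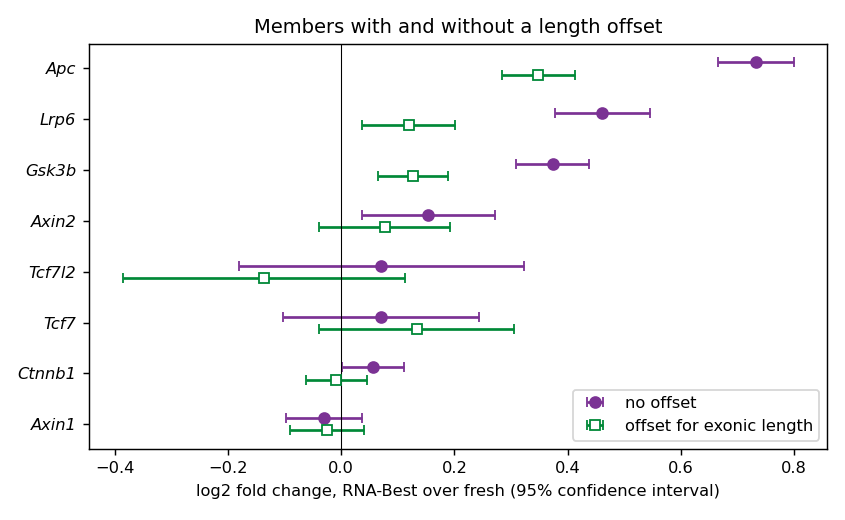
Log2 fold change of the 8 tested members with 95% confidence intervals, without and with an offset for exonic length. The intervals of Apc, Lrp6 and Gsk3b stay above 0 with the offset, at 0.35, 0.12 and 0.13, and that of Axin2 includes 0.

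The other 118 genes of the pathway were taken from 8 lists of ligands, receptors, antagonists, regulators and cofactors, and 76 passed the filter. Of these, 26 were higher and 13 lower in RNA-Best, with a median log2 fold change of 0.08. With the length offset the split turned to 13 higher and 25 lower, where the whole table went from 3828 higher and 3651 lower to 2338 and 3646. Without the offset, 26% of all tested genes were called higher and 24.8% lower. The 76 genes had a median exonic length of 6.35 kb. Of all tested genes of 6 to 8 kb, 45.3% were called higher and 10.3% lower.

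Among the Wnt ligands, 1 rose, 2 fell and 3 of 6 tested did not pass, and with the length offset 0 were higher and 2 lower. Their median exonic length was 3.73 kb, and of all tested genes of 3 to 4 kb 11.2% were called higher and 29.8% lower. Wnt5a, a ligand of noncanonical signalling, rose from 80.4 ± 5.17 to 91.3 ± 7.76 CPM (SD, n = 3, log2 fold change 0.13, edgeR adjusted p = 0.0211), and with the length offset it was at -0.05. Its call held in 8 of 16 analyses and was also lost with the GC offset (0.04, adjusted p = 0.555), no filter (0.08, 0.151), DESeq2's Wald test (0.14, 0.0641) and thinned counts (0.10, 0.197). The same held without fresh library 3 (0.10, edgeR adjusted p = 0.0787) or RNA-Best library 2 (0.08, 0.168). Wnt7b fell by 0.25 (edgeR adjusted p = 5.34e-05) and Wnt5b by 0.34 (edgeR adjusted p = 0.000115) on the log2 scale. Wnt7b was at -0.14 with the GC offset (edgeR adjusted p = 0.019) and lost its call on thinned counts (-0.14, 0.144). At the cell surface 4 of 8 receptors and co-receptors rose and 0 fell, and with the length offset 1 was higher and 2 were lower. Their median length was 5.77 kb, and of all tested genes of 4 to 6 kb 26.4% were called higher and 17.8% lower. The Frizzled receptor Fzd4 went from 104.0 ± 5.06 to 178.0 ± 10.0 CPM (log2 fold change 0.75, edgeR adjusted p = 7.41e-18) and kept 0.62 with the length offset. Lrp5, the co-receptor related to Lrp6, rose by 0.13 (edgeR adjusted p = 0.0288) but fell by 0.12 with the length offset (0.0469), and the Wnt-binding kinase-like receptor Ryk was at -0.03 (0.612) and called lower with the GC offset (-0.11, 0.0471). The Lrp5 call was also lost with no filter (log2 fold change 0.08, adjusted p = 0.291), with DESeq2's Wald test (0.12, 0.165) and on thinned counts (0.14, 0.13). It was lost too without fresh library 1 (0.11, edgeR adjusted p = 0.0713) or RNA-Best library 1 (0.07, 0.303). Neither tested antagonist passed, with Frzb at -0.16 (edgeR adjusted p = 0.191) and Kremen1 at 0.13 (0.0798). Kremen1 was called with the GC offset (0.19, edgeR adjusted p = 0.00923), and Frzb without RNA-Best library 2 (-0.27, 0.0307), while Frzb was at -0.02 (0.931) without RNA-Best library 3.

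In the R-spondin and secretion list 2 of 7 tested genes rose and 5 did not pass, and with the length offset 1 was higher and 1 lower. The median length of this list was 6.56 kb, and of all tested genes of 6 to 8 kb 45.3% were called higher and 10.3% lower. Lgr4, an R-spondin receptor, had a log2 fold change of 0.14 (edgeR adjusted p = 0.00155), a call lost with the length offset (0.05, 0.335), the GC offset (0.05, 0.318) and no filter (0.10, 0.06). Znrf3, a ligase that removes Frizzled from the surface, had 0.30 (edgeR adjusted p = 5.63e-07) and 0.12 with the length offset (0.0233), whereas the Wnt carrier Wls was at 0.07 (0.105) and, with the length offset, fell by 0.14 (0.000749). Dishevelled and destruction complex partners were divided, with 7 higher, 7 lower and 8 not called of 22, and 4 higher and 12 lower under the length offset. Their median length of 6.35 kb falls in the same bin of 6 to 8 kb. Tnks, the tankyrase that marks Axin for degradation, rose from 14.7 ± 1.08 to 38.7 ± 1.63 CPM (log2 fold change 1.36, edgeR adjusted p = 1.15e-18), has 14.9 kb of exons and was at 0.997 with the length offset. Ppp2r1a, a scaffold of the phosphatase PP2A, fell by 0.26 (edgeR adjusted p = 3.87e-09), and the kinase Csnk1d (-0.04, adjusted p = 0.232) and the ligase adaptor Fbxw11 (0.05, adjusted p = 0.258) did not pass. Csnk1d was called lower with the length offset (-0.10, edgeR adjusted p = 0.00662), alone or with the replicate block (-0.11, 0.00522), and with no filter (-0.09, 0.0201).

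Nuclear cofactors had 11 higher and 2 lower of 18 tested, and 7 higher and 6 lower with the length offset. They were long, with a median of 7.5 kb, and of all tested genes of 6 to 8 kb 45.3% were called higher and 10.3% lower. The kinase Hipk2 rose from 9.97 ± 1.53 to 27.3 ± 1.48 CPM (log2 fold change 1.38, edgeR adjusted p = 4.22e-16, and 1.17 with the length offset), and Tbl1x, a corepressor exchange factor, by 0.30 (7.06e-10, and 0.15 with the length offset). Aes, a short Groucho-family protein, fell by 0.22 (edgeR adjusted p = 8.23e-08), or by 0.13 with the GC offset (0.000183), and the corepressor Ctbp1 was at -0.07 (0.0522). Ctbp1 was called lower in 6 of 16 analyses, among them limma-voom (adjusted p = 0.0483), the length offset (-0.10, 0.00633), no filter (0.00125), the replicate block (0.0417) and edgeR without RNA-Best library 1 (0.0317). Tnks and Hipk2 were the pathway genes called with a log2 fold change of 1 or more in size without an offset.

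Axin2, described above, was called higher. Of 7 other tested genes that are widely used as readouts of TCF activity, 0 passed edgeR's test, 0 had an unadjusted p under 0.05, and 0 were called by DESeq2 or limma-voom, where edgeR called 50.8% of all tested genes. Of all tested genes of 4 to 6 kb, the bin of the readouts' median length, 26.4% were called higher and 17.8% lower. The groups did not overlap in 1 readout with RNA-Best above and in Fosl1 with RNA-Best below, beside 30.4% and 27.1% of all tested genes. The readouts' median log2 fold change was -0.07, beside -0.01 over all tested genes. Fosl1 was at -0.14 (edgeR adjusted p = 0.252), Nkd1 at -0.06 (0.717) and Nkd2 at -0.07 (0.657), with 7.13 to 10.8 CPM in the 6 libraries. Their 95% confidence intervals were -0.33 to 0.06, -0.29 to 0.18 and -0.29 to 0.16. With only 35 to 122 counts in each RNA-Best library, small changes in these genes could go uncalled. Among the other catenins 1 rose and 2 fell of 6 tested, and with the length offset 0 were higher and 2 lower. These had a median length of 7.13 kb, and of all tested genes of 6 to 8 kb 45.3% were called higher and 10.3% lower. Ctnna1 (α-catenin) rose by 0.16 (edgeR adjusted p = 4.18e-05), Jup (plakoglobin, a close relative of β-catenin) fell by 0.17 (0.00559), and Ctnnal1 was at 0.10 (0.116). The Ctnna1 call was lost with the length offset (0.03, edgeR adjusted p = 0.399), and that of Jup with the GC offset (-0.06, 0.327) and on thinned counts (-0.03, 0.829). With the length offset Jup fell further, to -0.29 (edgeR adjusted p = 1.27e-05).

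**Figure D5:**
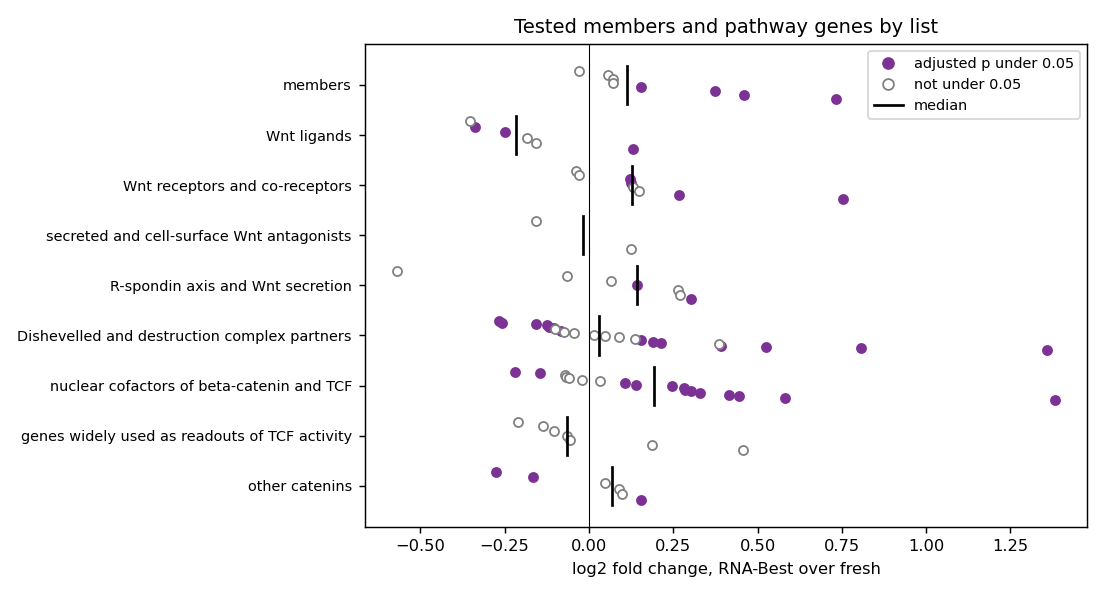
Log2 fold change of RNA-Best over fresh for the tested members and for each list of pathway genes, with filled points for adjusted p under 0.05 in edgeR's test and a line at each median. The members' median is 0.11, the Wnt ligands' is -0.22, and Tnks and Hipk2 are the points beyond 1.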

How the data were processed

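PolyA RNA of 3 fresh and 3 RNA-Best-preserved samples of GnRH-treated LβT2 cells was sequenced as single reads. Per the labels and the methods of the study, the authors aligned reads to GRCm38 (mm10) with STAR 2.5.1b and counted them per gene with featureCounts 1.5.0-p1 on GENCODE M8. The deposited values are estimated counts, without scaling to depth. Fractional values (over 0.001 off a whole number) occurred in each library, which means that some reads were divided between features, and the setting is not given in the sources used here. Values of paralogs and of overlapping or antisense genes are uncertain, and whether counting used strand is not given in the sources used here.

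Counts were rounded and tested in R 4.3.3 with edgeR 4.0.16 (quasi-likelihood test, TMM scaling, filterByExpr with a minimum count of 10, Benjamini-Hochberg adjustment over all tested genes). CPM used the total of each library. Exonic lengths and positions came from GENCODE M21 on the same assembly, which matched 46574 of 47069 genes by identifier. Shares and ratios were compared with exact two-sided permutation tests in SciPy 1.17.1. Motif windows came from RefSeq (GRCm38.p6), which matched 7 of the 10 members.

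Alternatives were DESeq2 1.42.0 size factors and its Wald test, limma 3.58.1 voom (the study's test), no filter, a fold change threshold, loess offsets (span 0.5) for length or GC content, thinning to the smallest library, a replicate block, leaving out each library and, for shares and ratios, no division by length. The length of the longest transcript was chosen after seeing the data. Tested on simulated data for the same comparison (14597 genes), edgeR recovered 64% of genes changed 1.2-fold, 80% at 1.5-fold, 91.8% at 2-fold and 98% at 4-fold, with 10 false calls. The simulation gave all genes the same biological coefficient of variation (2.14%), changed 49 or 50 tested genes per fold and held no length trend. Recovery and false calls in the real data may differ from these values.

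The members and lists were chosen with earlier results of these data known. All members are named and, from each pathway list, the 3 tested genes with the highest mean CPM per kb and any gene called with a log2 fold change of 1 or more in size. Gsk3a and Apc2 were added after their values were seen. All 6 libraries were used and 0 sample columns were left out. In pairs of libraries of a group the chi-square of the counts was 1.08 to 1.95 per gene, and no pair had identical values, so none was treated as a duplicate, and this does not show that libraries came from separate cultures. A further list of marker genes is not reported here.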

Additional observations from a re-analysis of the deposited data

How the results depend on the processing

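Apc, Gsk3b and Lrp6 were called higher in all 16 analyses, with log2 fold changes of 0.35 to 0.75, 0.13 to 0.40 and 0.11 to 0.48. The members called numbered 3 to 5, and 3 to 4 when a library was left out. Axin2 lost its call with no filter (log2 fold change 0.11, adjusted p = 0.210), with DESeq2's Wald test (0.155, 0.140), with the length offset (0.08, 0.310), on thinned counts (0.163, 0.161), with the block and length offset together (0.10, 0.162) and without fresh library 3, RNA-Best library 1 or RNA-Best library 2. Of all genes, 5388 to 7637 were called, 6357 to 7273 when a library was left out, and of the pathway lists 31 to 42 and 33 to 38. With no filter 3256 were higher and 4381 lower, and with the GC offset 3214 and 3901. A fold change threshold left 214 genes (206 higher, 8 lower) and 0 members.

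Same-numbered libraries did not deviate together (correlations -0.00844, 0.0121 and -0.0077). The chi-square between RNA-Best libraries was only 1.08 to 1.26 per gene, so most of that spread is counting error. These correlations therefore cannot show whether the numbers pair libraries. With the replicate block 7472 genes, 4 members and 37 pathway genes were called.

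With the block and length offset together, Gsk3a (-0.0686, adjusted p = 0.143), Lgr4 (0.0356, 0.478) and Ctnna1 (0.0262, 0.523) were not called either. The sign turned in some members and pathway genes. With the length offset this held for Ctnnb1 (-0.00889), Tcf7l2 (-0.136), Wnt5a (-0.0489), Lrp5 (-0.115), Kremen1 (-0.047), Wls (-0.145), Ctnnal1 (-0.0734) and Apc2 (-0.15), and with the block and length offset together for Ctnnb1 (-0.00996), Tcf7l2 (-0.176), Wnt5a (-0.0253), Lrp5 (-0.106), Kremen1 (-0.0607), Wls (-0.152), Ctnnal1 (-0.088) and Apc2 (-0.199). With the GC offset it held for Tcf7l2 (-0.0147), Axin1 (0.0492), Wls (-0.0747), Csnk1d (0.0071), Fbxw11 (-0.0309), Ctbp1 (0.0058) and Ctnnal1 (-0.0162), on thinned counts for Ryk (0.00176), Kremen1 (-0.0164) and Csnk1d (0.00562), with no filter for Fbxw11 (-0.000249) and with the replicate block for Nkd1 (0.0173). With a library left out, Ryk ranged from -0.061 to 0.00478 (turned without RNA-Best 2), Nkd1 from -0.233 to 0.165 (turned without RNA-Best 3, and at 0.00318 without fresh 1) and Nkd2 from -0.111 to 0.0135 (turned without fresh 2). Of these values, those of Lrp5 and Wls with the length offset, and of Wls with the block and length offset together, passed the threshold. The cause was not tested.

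The mean Tcf7 share was 68.2% with no division by length, 76.3% with the longest transcript and 85.5% on thinned counts, where the difference between groups was 2.36 percentage points (0.444 without thinning). With a library left out, this difference ranged from 0.12 (without fresh 3) to 0.72 (without fresh 1). The mean log2 ratio of Axin2 to Axin1 was -2.26 with no division by length and -2.43 with the longest transcript. Depth limits the weak members. Counting alone gave a coefficient of variation of 0.815% to 14.9% for the tested members, and Tcf7l1 and Lef1 could not be tested.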
